A study of Mus musculus with 15 samples.

Results

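The RNA of 10 chemokine genes was followed across 5 treatments of mouse mammary tumour spheres. The genes were Ccl2, Ccl6, Ccl9, Ccl20, Cxcl1, Cxcl2, Cxcl5, Cxcl15, Cxcl16 and Cx3cl1, taken as a fixed list out of 18193 genes measured. That list was chosen with earlier results of these data known. The 19 probe sets used were those annotated to exactly 1 listed gene. A probe set is a group of short probes on the array that together measure 1 transcript.

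Chemokines are small secreted proteins that guide the movement of leukocytes through G protein-coupled receptors. The CXC ligands Cxcl1, Cxcl2, Cxcl5 and Cxcl15 attract neutrophils, and Cxcl1, Cxcl2 and Cxcl5 do so through the receptor Cxcr2. Ccl2 attracts monocytes through Ccr2, Ccl6 and Ccl9 are mouse CC chemokines that act on Ccr1, and Ccl20 attracts lymphocytes and dendritic cells that carry Ccr6. Cxcl16 and Cx3cl1 are made as membrane-anchored proteins that surface proteases of the ADAM family can release. Mammary tumour cells can make chemokines themselves, and the transcription factor NF-kB is a known activator of several of these genes.

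The spheres were grown from primary mammary tumour cells of MMTV-PyMT mice on the FVB/N background, in which the mouse mammary tumour virus promoter drives the polyoma middle T oncogene in mammary epithelium. All 5 groups came from such cells, kept 10 days unattached without serum in EGF, FGF and B27. A vehicle (DMSO in the sample names) or an inhibitor was then present for 2 days, so that cultures lasted 12 days. The inhibitors were DAPT for Notch, U0126 for MEK1, TAE226 for focal adhesion kinase (FAK) and PP2 for Src, with 3 samples in each group and 15 arrays in all. For the doses, the sex and age of the donor mice and any pooling of tumours, the labels have no entry. The comparisons ask how each inhibitor changed the RNA of the tumour spheres, and each of the 4 comparisons with vehicle used the same 3 vehicle arrays. The labels call the samples biological replicates without saying whether they were separate mice or cultures, so the spread behind each p-value is that between these samples and may be technical.

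Values are array signals in the linear units of the deposited table, in which each array was scaled to a trimmed mean of 500. A signal below the median of its own array is called dim, and those medians ran from 65.7 to 90.8. Signals are compared between groups within 1 probe set and not between genes, apart from the sum over the leukocyte list below, which its brightest probe set dominates. The cells are labelled primary mammary tumour cells, and all 10 epithelial markers, among them Epcam, Krt8 and Cdh1, lay above the median on all 15 arrays. Of 15 leukocyte markers with a probe set, 8 were below the median on all 15 arrays, among them Ptprc, Lyz2, Itgam, Tyrobp and Fcer1g. So were 9 of 12 stromal and endothelial markers, among them Col1a1, Dcn and Pecam1. The summed signal of the leukocyte list ran from 11678 to 12870 with vehicle, 9263 to 9430 with DAPT, 2466 to 2767 with U0126, 7860 to 8383 with TAE226 and 12133 to 12683 with PP2. Most of that sum was Cd14, a bacterial lipid co-receptor of myeloid cells, whose signal was 11067.1 to 12157.3 with vehicle and 1909.2 to 2083.7 with U0126. The ratio of the 3′ to the 5′ actin probe sets, a sign of RNA integrity, was 1.42 ± 0.06 (SD, n = 3) with vehicle, 1.35 ± 0.07 with DAPT, 1.28 ± 0.07 with U0126, 1.33 ± 0.07 with TAE226 and 1.57 ± 0.04 with PP2. The part of Cd14 or of RNA integrity in the chemokine results was not tested. Serial numbers in the sample names ran group by group and may follow the order of processing. A trend over such an order and a treatment effect cannot be told apart.

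The DNA just upstream of 5 of these genes is shown first, since they had the 5 widest ranges over the treatments and 4 of them are chromosomal neighbours. RefSeq promoter sequences on build GRCm38.p6 were matched for 7 of the 10 genes, and each run below gives the 250 bases before the annotated start, 5′ to 3′ on the gene's strand. In the first 3, capitals mark matches on either strand to an NF-kB motif that reads GGG, then any 2 bases, then TTTCC.

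Cxcl1 promoter (chr5:90890995-90891244, plus strand): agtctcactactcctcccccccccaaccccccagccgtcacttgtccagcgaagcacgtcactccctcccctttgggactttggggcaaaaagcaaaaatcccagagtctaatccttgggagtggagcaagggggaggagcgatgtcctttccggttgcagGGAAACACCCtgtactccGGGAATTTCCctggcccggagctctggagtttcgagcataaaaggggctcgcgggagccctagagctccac

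Cxcl2 promoter (chr5:90903649-90903898, plus strand): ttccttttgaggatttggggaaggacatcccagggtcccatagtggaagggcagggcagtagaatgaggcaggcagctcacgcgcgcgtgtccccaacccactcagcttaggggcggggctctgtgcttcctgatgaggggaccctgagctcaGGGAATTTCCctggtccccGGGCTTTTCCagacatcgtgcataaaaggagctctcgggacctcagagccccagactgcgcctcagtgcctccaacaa

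Ccl20 promoter (chr1:83116516-83116765, plus strand): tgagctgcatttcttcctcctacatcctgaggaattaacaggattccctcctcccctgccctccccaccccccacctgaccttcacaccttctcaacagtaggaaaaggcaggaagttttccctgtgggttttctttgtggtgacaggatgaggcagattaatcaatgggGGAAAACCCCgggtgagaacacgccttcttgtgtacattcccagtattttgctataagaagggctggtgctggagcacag

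That motif lay in 4 of the 7 promoters, those of Cxcl1, Cxcl2, Ccl20 and Ccl9, against 1.41% of 32851 promoter windows of the same length. Cxcl1 and Cxcl2 are next to each other on chromosome 5, with Cxcl15 on the other side of Cxcl1. Their longest shared run, GGGAATTTCCCTGG, began 71 bases before the Cxcl1 start and 97 bases before the Cxcl2 start, and contains a match in each. Both hold a second match, 89 and 78 bases before the start. The single match of Ccl20 lay 80 bases before its start, on the opposite strand. A match is a string of letters and does not show that NF-kB bound there.

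Ccl9 and Ccl6 are also neighbours, on chromosome 11 between Ccl5 and Ccl3. In the next 2 sequences, capitals mark the longest run that both share, GCCCTCCACTTCC, which began 14 bases before the Ccl9 start and 55 bases before the Ccl6 start.

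Ccl6 promoter (chr11:83593088-83593337, minus strand): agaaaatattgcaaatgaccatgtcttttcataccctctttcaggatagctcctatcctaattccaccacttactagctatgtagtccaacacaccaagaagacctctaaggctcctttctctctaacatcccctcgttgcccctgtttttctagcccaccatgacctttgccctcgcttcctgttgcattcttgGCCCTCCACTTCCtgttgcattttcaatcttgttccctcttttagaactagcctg

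Ccl9 promoter (chr11:83578637-83578886, minus strand): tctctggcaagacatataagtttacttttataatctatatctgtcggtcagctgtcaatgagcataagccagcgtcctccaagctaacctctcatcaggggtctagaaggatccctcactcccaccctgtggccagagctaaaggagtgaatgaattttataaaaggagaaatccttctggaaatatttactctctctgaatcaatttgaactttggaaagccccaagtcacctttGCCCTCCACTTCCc

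The Ccl9 window also held an NF-kB match, GGAAAGCCCC read on the opposite strand, 35 bases before the start, and the Ccl6 window held none. The AP-1 motif TGANTCA occurred in 1 of the 7 promoters, that of Ccl9, against 6.75% of all windows. The STAT motif TTCNNNGAA occurred in 0 of 7 against 7.02%, and the RBPJ motif TGGGAA, which the DNA-binding partner of Notch recognises, in 2 of 7 (Ccl20 and Cx3cl1) against 21.6%. Every motif was searched on both strands.

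Of the 10 chemokines, 9 were tested, since their probe set exceeded the array median on at least 3 arrays, and Cxcl15 was not. An F-test over the 5 groups called 8 of these 9 at an adjusted p of 0.05, against 73.2% of the 11412 genes tested, and missed Ccl2. DAPT changed 5 of 9, with 2 higher and 3 lower, against a background of 34.6% of genes called (17.1% higher, 17.5% lower). U0126 changed 8 of 9, with 5 higher and 3 lower, against 40.9% (19.5% and 21.4%). TAE226 changed 7 of 9, with 2 higher and 5 lower, against 31.1% (15.2% and 15.9%). PP2 changed 7 of 9, with 3 higher and 4 lower, against 52.8% (26.1% and 26.7%). The share of members called exceeded the background in each comparison. However, the list was chosen with earlier results of these data known. Members above the filter only in the groups where they are high also had to differ, so the counts are a description. The signals did not overlap those with vehicle for 7 of 9 with DAPT (46.5% of all genes tested), 8 with U0126 (48.3%), 6 with TAE226 (43.3%) and 7 with PP2 (59%). The members did not move as a block. Their median log2 fold change was -0.48 under DAPT, 0.70 under U0126, -0.25 under TAE226 and -0.75 under PP2, against medians over all genes of 0.02, 0.00, 0.02 and 0.02.

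**Figure D1:**
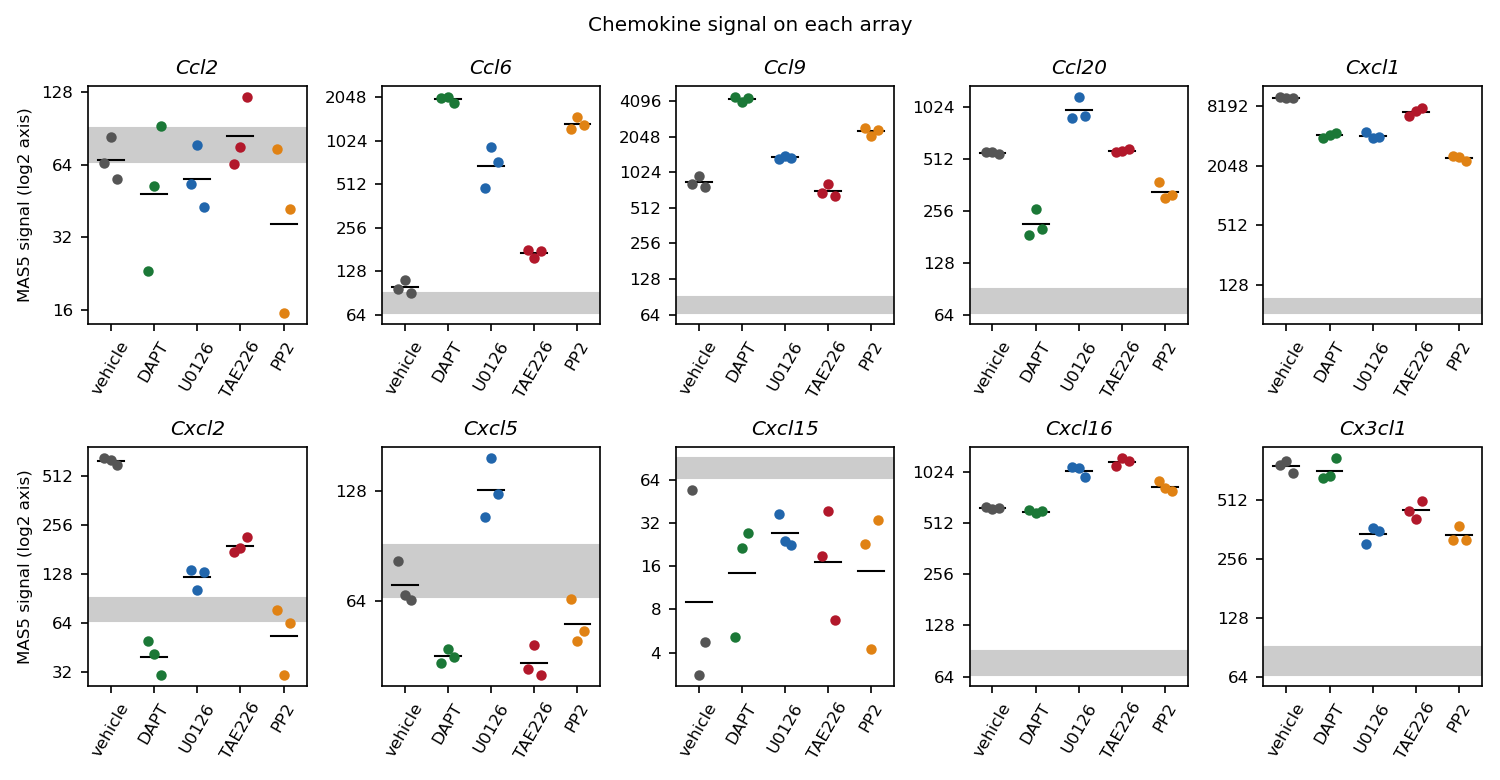
Signal of each of the 10 chemokines (log scale, array units) on each of the 15 arrays by treatment, with the group mean of log2 signal as a bar and the range of array medians, 65.7 to 90.8, shaded. Ccl6 and Ccl9 were highest with DAPT, Cxcl1 and Cxcl2 were highest with vehicle, and Cxcl15 lay below the median throughout.

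The neutrophil attractant Cxcl1 had its highest signals with vehicle, 10249.5, 9894.5 and 9975.4. They were 6522.5, 7359.7 and 7872.1 with TAE226, 3942.6, 4178.8 and 4363.1 with DAPT, 4488.5, 3899.3 and 4023.3 with U0126, and 2552.6, 2538.7 and 2273.1 with PP2. In this probe set, the brightest of 3 for Cxcl1, no inhibitor array reached the lowest vehicle array, and all 3 PP2 arrays lay below every other array. Cxcl1 fell under PP2 by 2.03 on the log2 scale (SE 0.07, adjusted p = 7.69e-13), which is 4.1-fold. It fell by 1.28 under U0126 (SE 0.07, adjusted p = 2.91e-10), by 1.27 under DAPT (SE 0.07, adjusted p = 6.26e-10) and by 0.47 under TAE226 (SE 0.07, adjusted p = 8.7e-05). The order of the levels was vehicle, TAE226, DAPT, U0126 and PP2. In this probe set only DAPT and U0126 were neighbours that could not be separated, with a difference of -0.01 (95% interval -0.16 to 0.14, adjusted p = 0.927). In both other Cxcl1 probe sets, all DAPT arrays lay above all U0126 arrays. The second read 3000.3, 2896.3 and 3022.2 with DAPT and 2784.5, 2664.3 and 2836.6 with U0126. The third read 1182.4, 1081.1 and 1095.8 against 1041.2, 839.2 and 1037.1. In bulk RNA such as this, fewer cells that make a transcript and less transcript per cell cannot be told apart.

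Cxcl2, which acts on the same receptor, fell further. Its signals were 658.2, 642.1 and 600.7 with vehicle, 174.0, 185.6 and 214.9 with TAE226, 135.9, 101.8 and 132.3 with U0126, 76.8, 30.8 and 63.8 with PP2, and 49.7, 41.3 and 30.8 with DAPT. All DAPT and PP2 arrays were dim, so their folds are lower bounds, set by putting each dim array at the higher of its median and its own value. On that basis Cxcl2 was at least 7.9-fold lower under DAPT (measured log2 change -3.99, SE 0.27, adjusted p = 6.65e-09) and at least 7.44-fold lower under PP2 (-3.57, SE 0.27, adjusted p = 9.86e-09). U0126 lowered it 5.18-fold (-2.37, SE 0.27, adjusted p = 2.48e-06) and TAE226 3.32-fold (-1.73, SE 0.27, adjusted p = 0.000124). The arrays of TAE226 all lay above those of U0126, but the difference of 0.64 (95% interval 0.06 to 1.22) missed the threshold at an adjusted p of 0.076. It passed with a pseudocount (0.42, adjusted p = 0.0124) and without PP2 replicate 2 (0.64, adjusted p = 0.0143). PP2 minus DAPT, both dim, was 0.42 (adjusted p = 0.244), or 0.81 (0.00707) without PP2 replicate 2, and values this dim are given no order.

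Cxcl5, another Cxcr2 ligand, stood close to the array median and rose with U0126. Its signals were 82.5, 66.4 and 64.3 with vehicle and 108.4, 156.7 and 124.9 with U0126, with no overlap between them. DAPT arrays read 43.5, 47.3 and 44.9, TAE226 arrays 41.8, 48.6 and 40.3, and PP2 arrays 64.8, 49.8 and 52.9, all of them dim. The rise with U0126 was 0.86 (SE 0.26, adjusted p = 0.0123), and it was 0.72 with an adjusted p of 0.0671 without U0126 replicate 2. Cxcl5 exceeded the median on 5 arrays, 3 of them with U0126, so it entered the test through the group where it is high. In the fit of all 18193 genes with no filter, the adjusted p was 0.0225. The change with TAE226 was -0.70 (SE 0.26, adjusted p = 0.0475). That call ended when any 1 array other than PP2 replicate 2 was left out, with adjusted p from 0.0509 to 0.159, and no fold is given against dim signals so near the median. DAPT gave -0.64 (adjusted p = 0.0622) and PP2 -0.35 (adjusted p = 0.27). The DAPT value passed after quantile normalization (-0.76, adjusted p = 0.0388) and with no intensity trend (-0.64, adjusted p = 0.00448). Directly against the other inhibitors, Cxcl5 was at least 1.6-fold higher with U0126 than with DAPT (adjusted p = 0.000149), 1.47-fold than with TAE226 (0.000148) and 1.51-fold than with PP2 (0.000693). With no filter these adjusted p were 0.000292, 0.000288 and 0.00135.

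Cxcl15, another neutrophil attractant, was dim on all arrays. Its brighter probe set read 2.8 to 54.9 over the 15 arrays and its other probe set 2.6 to 45.8, and neither was tested.

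Ccl6 showed the widest range of the 9 genes tested, 4.32 on the log2 scale between its lowest and highest group mean. Its signals were 96.8, 111.8 and 90.3 with vehicle, 179.6, 159.4 and 175.7 with TAE226, 483.8, 931.8 and 727.5 with U0126, 1230.4, 1508.6 and 1329.3 with PP2, and 2021.1, 2068.6 and 1873.1 with DAPT. No 2 groups overlapped. Ccl6 rose 20-fold with DAPT (log2 4.32, SE 0.17, adjusted p = 4.86e-12) and 13.6-fold with PP2 (3.77, SE 0.17, adjusted p = 8.86e-12). It rose 6.95-fold with U0126 (2.80, SE 0.17, adjusted p = 5.52e-10) and 1.73-fold with TAE226 (0.79, SE 0.17, adjusted p = 0.00154). The vehicle signals in these folds lay close to the array medians of 65.7 to 90.8, and a second Ccl6 probe set was dim with vehicle. Each step in the order DAPT, PP2, U0126, TAE226, vehicle passed the test. The step from DAPT to PP2 was the smallest, -0.56 (SE 0.17, adjusted p = 0.0133), and missed the threshold without PP2 replicate 1 (-0.49, adjusted p = 0.0585).

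Its neighbour Ccl9 had the same first 3 treatments in order and a smaller range, 2.59. Its signals were 4439.2, 4040.5 and 4322.4 with DAPT, 2431.3, 2072.5 and 2317.1 with PP2, and 1334.1, 1407.2 and 1354.2 with U0126. With vehicle they were 808.0, 958.3 and 772.0, and with TAE226 686.8, 807.0 and 639.4. The DAPT, PP2 and U0126 arrays lay above every vehicle array, without overlap among themselves, while TAE226 and vehicle overlapped. Ccl9 rose 5.06-fold with DAPT (2.34, SE 0.09, adjusted p = 5.3e-12), 2.69-fold with PP2 (1.43, SE 0.09, adjusted p = 8.64e-10) and 1.62-fold with U0126 (0.70, SE 0.09, adjusted p = 9.65e-06). The change with TAE226 was -0.25 (SE 0.09, adjusted p = 0.0438). Leaving out either of vehicle replicates 1 and 2, DAPT 1 and 3, any U0126 array, TAE226 1 and 3 or PP2 replicate 3 ended that call, with adjusted p from 0.0502 to 0.219. So did testing with no filter (0.0625), with no intensity trend (0.0766) and on the TAE226 and vehicle groups alone (0.114). A second Ccl9 probe set gave -0.46 (adjusted p = 0.00312). Of the 15 leukocyte markers with a probe set, Cd14, Laptm5 and S100a8 exceeded the median on all 15 arrays, Csf1r on 11, Adgre1 on 7, Cd68 on 5, Cd3e on 1 and the other 8 on none. Of the 6 tested, 0 were higher and 2 lower with DAPT, 0 and 2 with U0126, 1 and 1 with TAE226, and 2 and 0 with PP2. The share of all genes called was 34.6%, 40.9%, 31.1% and 52.8% in that order, so these counts were near or below it. S100a8 changed by 0.91 with TAE226 (adjusted p = 6.6e-05), -1.03 with DAPT (1.54e-05) and -1.28 with U0126 (8.55e-07). Cd14 changed by -0.39 with DAPT (adjusted p = 1.66e-05), -2.51 with U0126 (8.09e-16) and -0.67 with TAE226 (4.13e-08). Laptm5 rose with PP2 by 0.82 (adjusted p = 0.00734). Adgre1, dim with vehicle, was at least 1.5-fold higher with PP2 (adjusted p = 0.00674). The part of these markers in the Ccl6 and Ccl9 values was not tested.

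Ccl20, the Ccr6 ligand, rose with MEK1 inhibition and fell with DAPT and PP2. Its signals were 561.4, 562.6 and 548.5 with vehicle, 882.0, 1170.2 and 910.7 with U0126, 562.5, 567.4 and 581.5 with TAE226, 376.4, 305.4 and 315.9 with PP2, and 185.7, 263.4 and 201.5 with DAPT. The TAE226 arrays overlapped the vehicle arrays, and the other 3 groups did not overlap vehicle or each other. Ccl20 rose 1.76-fold with U0126 (0.81, SE 0.13, adjusted p = 6.27e-05). It fell 2.6-fold with DAPT (-1.38, SE 0.13, adjusted p = 2.43e-07) and 1.68-fold with PP2 (-0.75, SE 0.13, adjusted p = 8.83e-05). With TAE226 the difference was 0.03 (95% interval -0.23 to 0.30, adjusted p = 0.871), and it took the other sign after quantile normalization (-0.01) and median centring (-0.22). The widest gap between inhibitors was U0126 over DAPT, 4.57-fold (2.19, SE 0.13, adjusted p = 5.75e-10).

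Ccl2, the Ccr2 ligand, lay at the edge of detection. Its signals were 64.9, 83.7 and 55.7 with vehicle, 23.2, 52.0 and 92.8 with DAPT, 53.0, 77.3 and 42.8 with U0126, 64.4, 75.6 and 122.3 with TAE226, and 74.3, 15.5 and 41.9 with PP2. It exceeded the median on 4 of 15 arrays, and every inhibitor group overlapped the vehicle group. No comparison with vehicle passed, with adjusted p from 0.183 to 0.741. The widest was PP2, -0.88 (SE 0.54, 95% interval -2.03 to 0.26), which became -1.40 with an adjusted p of 0.049 without PP2 replicate 1. PP2 against TAE226 gave -1.21 (adjusted p = 0.0823), and -1.72 (0.0221) without that same array. The SE of 0.54 was the largest among the 9 genes tested.

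The membrane-anchored Cxcl16 was higher with the 3 kinase inhibitors. Its signals were 635.0, 618.8 and 631.9 with vehicle, 612.2, 584.2 and 600.4 with DAPT, 905.4, 823.6 and 789.8 with PP2, 1096.0, 1076.7 and 951.8 with U0126, and 1113.3, 1234.2 and 1195.5 with TAE226. All 9 arrays of the kinase inhibitors exceeded all vehicle and DAPT arrays. Cxcl16 rose 1.88-fold with TAE226 (0.91, SE 0.07, adjusted p = 5.45e-08) and 1.65-fold with U0126 (0.73, SE 0.07, adjusted p = 3.44e-07). The rise with PP2 was 1.33-fold (0.42, SE 0.07, adjusted p = 0.000102), and it missed the threshold after median centring (0.20, adjusted p = 0.115) and in a second probe set (0.11, adjusted p = 0.475). DAPT gave -0.07 (95% interval -0.22 to 0.08, adjusted p = 0.484). TAE226 exceeded U0126 by 0.18, which missed the threshold (adjusted p = 0.0525) and passed with a pseudocount (0.17, adjusted p = 0.0492) and without U0126 replicate 1, TAE226 replicate 1 or PP2 replicate 1 (adjusted p from 0.039 to 0.0455).

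Cx3cl1, the other membrane-anchored ligand, was lower with the 3 kinase inhibitors. Its brightest probe set read 773.4, 807.9 and 704.3 with vehicle, 660.8, 680.3 and 835.2 with DAPT, 451.0, 410.6 and 505.7 with TAE226, 303.9, 366.8 and 356.9 with U0126, and 321.7, 376.1 and 319.2 with PP2. DAPT arrays overlapped vehicle arrays, and all 9 kinase inhibitor arrays lay below both. Cx3cl1 fell 2.25-fold with PP2 (-1.17, SE 0.11, adjusted p = 1.6e-07), 2.23-fold with U0126 (-1.16, SE 0.11, adjusted p = 3.06e-07) and 1.68-fold with TAE226 (-0.74, SE 0.11, adjusted p = 7.72e-05). DAPT gave -0.08 (95% interval -0.31 to 0.16, adjusted p = 0.64). U0126 and PP2 could not be separated, with a difference of -0.01 for PP2 minus U0126 (95% interval -0.25 to 0.22, adjusted p = 0.926). TAE226 exceeded U0126 by 0.41 (adjusted p = 0.00807), or by 0.24 after median centring (adjusted p = 0.185). A second Cx3cl1 probe set, near the median, gave 0.18 with DAPT, -0.88 with U0126, 0.29 with TAE226 and -0.81 with PP2, none of them past the threshold, and 2 more were dim on all arrays.

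**Figure D2:**
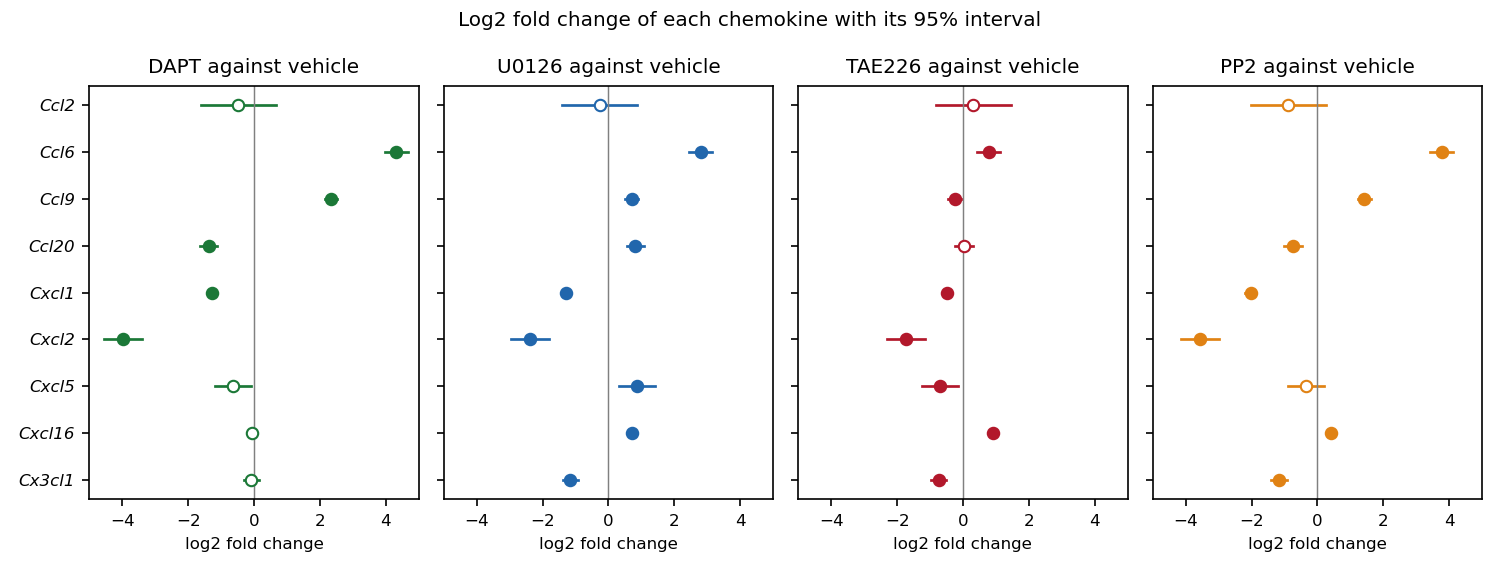
Log2 fold change of the 9 tested chemokines for each inhibitor against vehicle, with 95% intervals from limma and 3 arrays per group, filled where the adjusted p was under 0.05. Ccl6 reached 4.32 with DAPT and Cxcl2 -3.99 with DAPT, where its signal was dim, and Cxcl16 and Cx3cl1 lay on opposite sides of 0 with the 3 kinase inhibitors.

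Between inhibitors, 40 of 54 gene-by-contrast tests of the 9 genes passed (74.1%), against 40.6% over all genes tested. These counts too are a description, since the list was chosen with earlier results of these data known. Taken one comparison at a time, 7 of 9 passed between U0126 and DAPT (44.7% of all genes), 7 between TAE226 and DAPT (22.6%) and 6 between PP2 and DAPT (39.7%). Another 6 of 9 passed between TAE226 and U0126 (37.2%), 7 between PP2 and U0126 (55.9%) and 7 between PP2 and TAE226 (43.6%). DAPT and U0126 could not be separated in the brightest Cxcl1 probe set, though their arrays did not overlap in its other probe sets. Ccl20 differed 4.57-fold between them. PP2 and DAPT, which had the 2 highest groups of Ccl6 and Ccl9 and the dim groups of Cxcl2, differed in Cx3cl1 by -1.09 (SE 0.11, adjusted p = 6.66e-07) and in Cxcl1 by -0.76 (SE 0.07, adjusted p = 2.57e-07). PP2 and TAE226 differed in Ccl6 by 2.98 (SE 0.17, adjusted p = 2.41e-10) and in Cxcl1 by -1.56 (SE 0.07, adjusted p = 2.43e-11).

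Several genes were read by more than 1 probe set. The 3 Cxcl1 probe sets gave values from -1.90 to -2.03 with PP2 in 2 of them and -1.47 in the other, and between -1.18 and -1.39 with DAPT and U0126. The probe set that gave -1.47 carries the suffix _x_at, which marks probes that may bind other transcripts. Its PP2 signals (855.6, 996.7 and 908.8) overlapped its U0126 signals (1041.2, 839.2 and 1037.1). The second Ccl6 probe set gave measured values of 4.42 with DAPT and 3.79 with PP2. It was dim with vehicle (47.6, 57.6 and 30.7) and with TAE226, so these values are not taken as folds. The second Ccl9 probe set gave 2.53 with DAPT and 1.53 with PP2. Thus the probe sets of Ccl6, Ccl9 and Cxcl1 gave the same sign in all 4 comparisons with vehicle. For the second Ccl6 probe set, the sign with TAE226 came from groups that were both dim. Those of Cxcl16 differed in the PP2 value and those of Cx3cl1 in the sign with DAPT and TAE226, as given above.

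**Figure D3:**
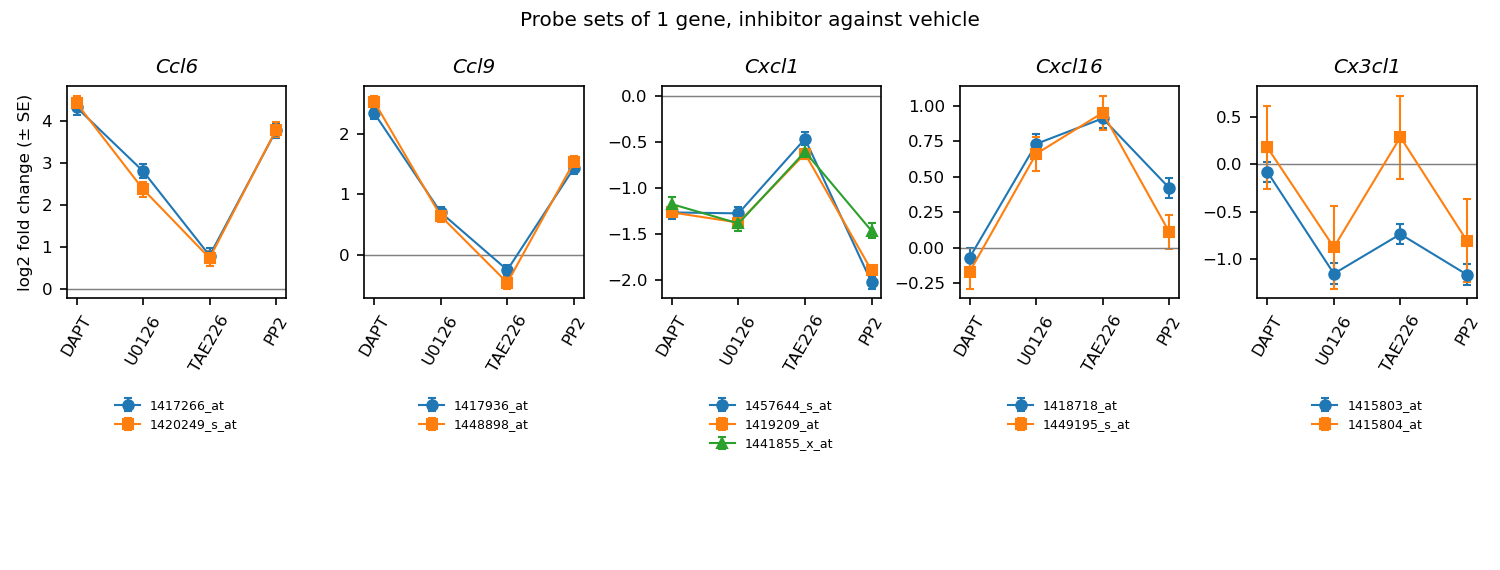
Log2 fold change against vehicle, with its standard error, for each probe set of the 5 chemokines with more than 1 above the filter; lines join values of 1 probe set and have no order. The 2 Ccl6 probe sets gave 4.32 and 4.42 with DAPT, the latter against dim vehicle signals, while the 2 Cx3cl1 probe sets gave -0.74 and 0.29 with TAE226.

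The genes whose log2 signal ran most like that of the widest-ranging chemokines were named over the 15 arrays. Those arrays share 5 treatments, so a correlation describes mostly the group means. For Ccl6 they were Gsta3, a glutathione transferase (r = 0.981), Pcx, pyruvate carboxylase (0.963), and Tanc1 (0.96). Gsta3 rose 16.6-fold with DAPT and 7.83-fold with PP2, and Pcx rose 1.7-fold and 1.73-fold. For Cxcl2 they were the interferon-inducible Ifi202b (r = 0.957), the lipid kinase gene Pi4k2b (0.953) and Rsad2, an interferon-induced antiviral gene (0.949). Rsad2 fell 40.1-fold with DAPT (-5.33, adjusted p = 5.3e-12) and 52.8-fold with PP2 (-5.72, adjusted p = 8.84e-13). For Ccl9 they were Thrsp, a regulator of fat synthesis (r = 0.99), the autophagy gene Map1lc3a (0.964) and the ubiquitin ligase gene Rnf128 (0.958). Ccl6 and Ccl9 correlated at 0.919, which put Ccl9 in place 18 among the genes most like Ccl6. Cxcl2 stood in place 217 among the genes most like Cxcl1 (r = 0.85).

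**Figure D4:**
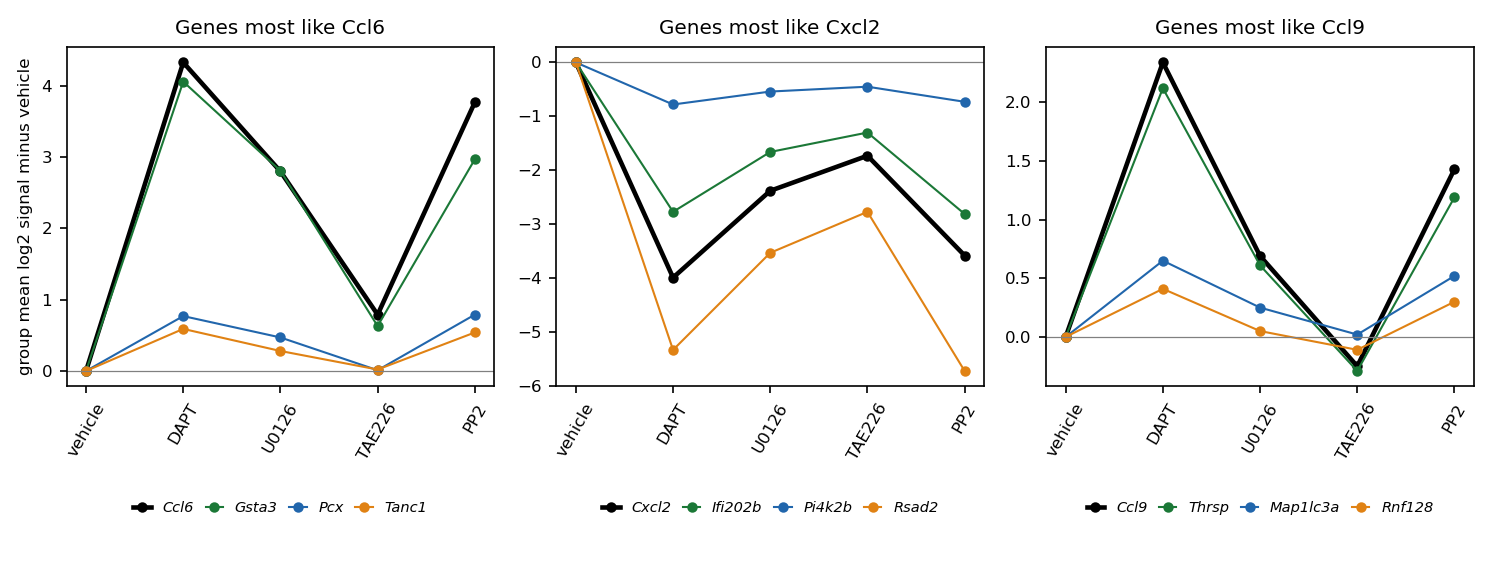
Group mean log2 signal minus the vehicle mean for Ccl6, Cxcl2 and Ccl9 (black) and the 3 genes with the highest correlation to each over 15 arrays; lines join groups that have no order. Gsta3 nearly overlay Ccl6 with U0126, both at 2.80, while Pcx reached 0.79 with PP2 and Tanc1 0.59 with DAPT.

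Of 27 other chemokine ligands, 25 had a probe set, 13 were dim on all arrays and 11 were tested. With DAPT 2 were higher and 2 lower, with U0126 2 and 2, with TAE226 2 and 1, and with PP2 4 and 2. In that order the share of all genes called was 34.6%, 40.9%, 31.1% and 52.8%, so the ligands' 4, 4, 3 and 6 of 11 were near it. The median log2 fold change over the 11 was 0.38, 0.05, 0.39 and 0.58 in that order. Cxcl10, an interferon-induced attractant of T cells, read 338.6, 448.8 and 341.6 with vehicle and was dim on all 12 inhibitor arrays. It was at least 4.65-fold lower with DAPT (adjusted p = 0.000451), 4.82-fold with U0126 (5.97e-05), 4.38-fold with PP2 (4.43e-05) and 4.28-fold with TAE226 (0.0403). Cxcl10 entered the test only through its vehicle arrays, and with no filter the adjusted p were 0.000389, 4.69e-05, 3.45e-05 and 0.046. The TAE226 call was lost without any 1 vehicle or TAE226 array, with adjusted p from 0.0726 to 0.116. Ccl5, the gene next to Ccl9, read 474.6, 586.4 and 433.7 with vehicle. It was at least 6.16-fold lower with DAPT (adjusted p = 7.04e-05) and 6.39-fold lower with U0126 (0.000209), and lower with PP2 (0.000289), where its signals were 11.1, 95.8 and 54.1 and 2 of the 3 were dim, so no fold is given. With TAE226 it changed by -1.04 (adjusted p = 0.285), which passed with a pseudocount (-0.84, adjusted p = 0.0054). Ccl28, an epithelial chemokine, rose 4.34-fold with DAPT (adjusted p = 6.34e-09), 3.15-fold with U0126 (8.53e-08) and 3.1-fold with PP2 (5.97e-08). Cxcl12, the ligand of Cxcr4, rose 3.33-fold with TAE226 (adjusted p = 2.07e-05) and 1.67-fold with U0126 (0.0154), the latter lost without vehicle replicate 2 (0.0622) or U0126 replicate 1 (0.0828).

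Of 23 chemokine receptors, 21 had a probe set, 16 were dim on all arrays and 4 were tested. DAPT raised 1 and lowered 0, U0126 and TAE226 each raised 1 and lowered 1, and PP2 raised 2 and lowered 0, where the share of all genes called was 34.6%, 40.9%, 31.1% and 52.8% for DAPT, U0126, TAE226 and PP2. Ackr4, a scavenger of Ccl19, Ccl21 and Ccl25, rose by 1.27 with U0126 (adjusted p = 2.48e-05), 0.95 with TAE226 (0.000691) and 0.71 with DAPT (0.00586). Its value with PP2 was 0.44 (adjusted p = 0.0483), lost without any array but vehicle 1, U0126 1 and 3 and TAE226 3, with adjusted p from 0.0507 to 0.209, and also after quantile normalization (0.27, 0.246) or median centring (0.22, 0.397). Ccrl2, an atypical receptor, fell by 1.17 with U0126 (adjusted p = 2.28e-07) and by 0.64 with TAE226 (0.000297). With PP2 it rose by 0.54 (0.000571), or 0.32 after median centring (0.0603).

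For release from the membrane and capture at the surface, 5 genes were tested. With DAPT 1 was higher and 1 lower, with U0126 4 and 0, with TAE226 2 and 1, and with PP2 2 and 2. Over all genes 34.6%, 40.9%, 31.1% and 52.8% were called in these comparisons. The metalloproteases Adam8 and Adam10 rose with U0126 by 2.23 (adjusted p = 9.08e-10) and 0.70 (3.28e-05). Adam8 also rose with PP2 by 0.65 (adjusted p = 0.00066) and with TAE226 by 0.58 (0.00364), the latter 0.33 after median centring (0.0962). With DAPT it changed by -0.04 (adjusted p = 0.848). Adam10, which cleaves Cx3cl1 and Cxcl16, changed by 0.08 with DAPT (adjusted p = 0.571), 0.09 with TAE226 (0.537) and -0.22 with PP2 (0.0801). That PP2 value passed after median centring (-0.44, adjusted p = 0.0102) and without vehicle replicate 3 (-0.30, 0.0287) or TAE226 replicate 1 (-0.22, 0.0321). The heparan sulfate proteoglycan Sdc4, which can hold chemokines, rose with U0126 by 0.46 (adjusted p = 1.17e-05) and with TAE226 by 0.39 (0.000118), the latter 0.13 after median centring (0.281). Its value with PP2, 0.19 (adjusted p = 0.0137), was -0.03 after median centring. Sdc1 fell with PP2 by 0.39 (adjusted p = 1.35e-05) and rose with U0126 by 0.23 (0.00258), or 0.15 after median centring (0.31).

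Of 15 tested NF-kB factors and feedback genes, DAPT raised 1 and lowered 6, U0126 raised 2 and lowered 4, TAE226 raised 3 and lowered 1, and PP2 raised 3 and lowered 2. Against 34.6%, 40.9%, 31.1% and 52.8% of all genes, only the 7 of 15 with DAPT exceeded the background. Bcl3, a nuclear NF-kB cofactor, fell by 1.23 with DAPT (adjusted p = 7.39e-06), 1.18 with U0126 (8.59e-06) and 0.84 with TAE226 (0.00041). With PP2, where Cxcl1 was lowest, it changed by 0.25 (adjusted p = 0.174). Relb fell by 0.90 with DAPT (adjusted p = 4.74e-05) and 0.61 with U0126 (0.00113). The feedback inhibitor Nfkbie fell by 0.97 with DAPT (adjusted p = 0.00623) and 1.13 with PP2 (0.00108), and the adhesion molecule Icam1 fell by 1.15 with PP2 (1.8e-06). These genes were named for the size of their change. The 3 that rose with PP2 changed less: Rela by 0.48 (adjusted p = 9.46e-06), Ikbkg by 0.30 (0.00089) and Tnfaip3 by 0.29 (0.0227).

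Of 8 tested inflammatory cytokines, DAPT raised 2 and lowered 4, U0126 raised 2 and lowered 1, TAE226 raised 1 and lowered 0, and PP2 raised 3 and lowered 3. With 34.6%, 40.9%, 31.1% and 52.8% of all genes called, U0126 and TAE226 lay below the background. Il33, an epithelial alarm cytokine, was dim with vehicle at 29.1, 52.8 and 22.8 and read 421.9, 459.1 and 447.4 with DAPT, at least 6.05-fold higher (adjusted p = 1.46e-07). It passed the filter through those DAPT arrays, and the adjusted p with no filter was 2.34e-07. Csf3, which drives neutrophil production, was lower with DAPT (adjusted p = 0.000174), where its signals of 65.7, 33.8 and 95.3 were dim on 2 of 3 arrays, and rose by 0.89 with U0126 (0.0166), the latter lost without vehicle replicate 1 (0.0657) or U0126 replicate 1 (0.0538). Il23a was at least 1.22-fold lower with DAPT (adjusted p = 0.000386) and 1.15-fold with PP2 (3.53e-05), or 0.000282 and 2.23e-05 with no filter. Il1rn, the interleukin-1 receptor antagonist, was at least 1.21-fold lower with DAPT (adjusted p = 0.00062) and 1.25-fold with U0126 (9.96e-05), or 0.000992 and 0.000157 with no filter. Both passed the filter only through the vehicle group, where they were high.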

How the data were processed

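RNA was measured in 15 samples in 5 treatment groups, each on 1 Affymetrix Mouse430_2 array. The deposited table holds a signal intensity per probe set and array, made by the authors with Affymetrix Expression Console and MAS5 per the submitters' processing notes. On every array the mean after trimming 2% at each end was 500, so a shift of most genes would be spread over all. Of 45101 probe sets, 34945 had exactly 1 annotated gene. Each of 18193 genes was represented by its probe set of highest mean log2 intensity. Probe sets with the suffix _x_at were used only for genes with no other. Of these genes 11412 were tested, those above the array median on at least 3 arrays. The fit used limma 3.58.1 (R 4.3.3) on log2 intensities of all 15 arrays, with a coefficient for each group, an intensity trend, 10 residual and 6.40 prior degrees of freedom. Adjusted p come from this limma fit, or from a limma refit where an alternative or a second probe set is named. Those of comparisons between groups are two-sided. The Benjamini-Hochberg method was applied over all genes, or all probe sets, of a comparison, with a threshold of 0.05. The number of arrays limits the precision, and fold changes on the log2 scale had a median standard error of 0.0976. The script was tested on simulated data. No array copied another, since at most 2 probe sets had equal values on any pair of arrays.

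The chemokines and the other lists were chosen with earlier results of these data known. All 10 chemokines are named, with at most 4 called members of each list of ligands, receptors, NF-kB, cytokine and release genes, and the 3 genes most correlated with each of the 3 widest-ranging chemokines. The NF-kB genes that rose with PP2 are named as well. Named leukocyte and tissue markers were chosen after their values were seen. Alternatives were quantile normalization, median centring, a pseudocount of 80.7, other filters, every probe set, no trend, a replicate block, only the groups compared, and each array left out. Promoter windows came from RefSeq.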

Additional observations from a re-analysis of the deposited data

How the results depend on the processing

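The counts of chemokines called stayed within 1.5 times their reported value under every alternative run. They ran from 5 to 6 with DAPT, 7 to 8 with U0126, 5 to 7 with TAE226, 6 to 8 with PP2, 7 to 8 in the F-test and 37 to 42 between inhibitors, the arrays left out in turn included. The direction turned for a few values: Ccl2 with DAPT, which ran from -0.95 to 0.05 with 1 array left out and was 0.05 without DAPT replicate 1, Ccl20 with TAE226, -0.01 after quantile normalization and -0.22 after median centring, and the second Cx3cl1 probe set, 0.18 with DAPT, and with TAE226 0.29, where the brighter probe set was called lower. Median centring moved the median of all genes by -0.13 with DAPT, -0.08 with U0126, -0.25 with TAE226 and -0.22 with PP2. It left 689 genes higher and 2444 lower with DAPT (1950 and 1998 without it), 1211 and 2424 with U0126 (2222 and 2441), 428 and 4241 with TAE226 (1732 and 1816), and 1210 and 4331 with PP2 (2978 and 3052). Replicate numbers did not pair the arrays: deviations from group means of same-numbered arrays correlated from -0.24 to 0.20 (median 0.01), and 4 of 15 arrays correlated best with their own number. With the replicate number as a block, 5 chemokines were called with DAPT, 8 with U0126, 5 with TAE226 and 7 with PP2, 8 in the F-test and 40 between inhibitors. The TAE226 calls lost under the block were Ccl9 (-0.25, adjusted p = 0.0532) and Cxcl5 (-0.70, adjusted p = 0.0624). Signals of Ccl2, Cxcl5, Cxcl15 and the dim groups of Cxcl2 are limited by background, and those of Ccl6 with vehicle lay close to the array median.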
